A study of Oryza sativa with 36 samples.

Results

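Genes with many peaks of N6-methyladenosine (m6A) were taken from the m6A peak lists of rice shoots and roots. A gene was taken when it held 3 or more peaks in both wild-type lists of an organ, which gave 180 genes in shoot and 135 in root. These are few of the 10641 genes in shoot and 10893 in root with a peak in both wild-type lists, and of the 17436 genes with a peak in any list. The shoot and root sets together hold 251 genes. They share 64, which is 35.6% of the shoot set and 47.4% of the root set. The shoot genes held 842 and 900 peaks in wild-type replicates 1 and 2, and the root genes held 579 and 575, out of 173074 gene peaks in the 12 lists of the study.

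The study grew rice (Oryza sativa, cultivar Nipponbare) of 3 genotypes in nutrient solution until day 15, under days of 12 h at 26 °C and nights at 22 °C. FTO plants carried a transgene of the RNA demethylase FTO, FTOmut plants carried a form of it without demethylase activity, both described as homogeneous, and wild-type (WT) Nipponbare carried neither. Shoots and roots were taken from each genotype, with 2 replicates per group for RNA-seq, after removal of ribosomal RNA, and 2 for m6A-seq of poly(A) RNA. The promoter of the transgenes and the number of lines were not given in the sources used here, the transgene transcript itself was not analysed here, and the labels do not say that replicates were separate cultures, so p-values speak only of the spread among these libraries, which may be technical. The molecule label of the RNA-seq samples reads poly(A) RNA, against the ribosomal RNA removal that the protocol describes.

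m6A is a methyl mark on adenosines inside messenger RNA. It is set by a complex of writer proteins, read by YTH domain proteins and removed by demethylases, of which FTO is one from animals. In m6A-seq, RNA is cut into short fragments, fragments with the mark are pulled down by an antibody, and a peak is a stretch of a transcript with more fragments in the pull-down than in the input. In plants as in animals many m6A peaks lie near the stop codon and in the 3′ untranslated region.

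The genes were chosen by their wild-type peak numbers, so these numbers and their difference from FTO and FTOmut in the same organ are given as a description, with no test. Of the 180 shoot genes, 30 held exactly 3 peaks in both wild-type lists, as did 64 of the 135 root genes. At this edge, LOC_Os01g37070 and LOC_Os09g08650 held 3 peaks in both wild-type shoot lists. Just outside it, LOC_Os06g49950 held 4 and 2 peaks and LOC_Os06g45520 held 2 and 4. In root, LOC_Os07g46880 and LOC_Os08g01054 lay just inside with 3 and 3 peaks, and LOC_Os09g08650 with 4 and 2 and LOC_Os02g50840 with 3 and 2 lay just outside. In the wild-type lists 9320 genes of shoot and 8794 of root held exactly 1 peak in both replicates, and 365 and 902 held exactly 2.

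The gene with the most wild-type peaks in shoot was LOC_Os01g02530, whose peaks lie on the minus strand of chromosome 1 between positions 824654 and 830758 of the lists. It held 10 and 10 peaks in FTO shoots, 11 and 9 in FTOmut shoots and 14 and 11 in wild-type shoots. Wild-type replicate 1 was the highest list, and the FTO and FTOmut values overlap. LOC_Os07g45610, on the plus strand of chromosome 7 between 27221498 and 27226882, held 10 and 10 peaks in FTO shoots, 9 and 9 in FTOmut shoots and 11 and 10 in wild-type shoots. LOC_Os07g22410, also on chromosome 7, held 11 and 9 peaks in FTO shoots, 12 and 8 in FTOmut shoots and 9 and 11 in wild-type shoots. The next 2 were LOC_Os11g43670 and LOC_Os10g04050. The first of them held 9 to 11 peaks in every shoot list, while the second ranged more widely, with 11 and 7 peaks in FTO, 7 and 8 in FTOmut and 6 and 12 in wild type.

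In root the highest wild-type numbers belonged to LOC_Os06g48470, on the minus strand of chromosome 6 between 29322184 and 29327484. It held 11 and 7 peaks in FTO roots, 12 and 11 in FTOmut roots and 14 and 14 in wild-type roots. LOC_Os06g48430, on the plus strand of chromosome 6 between 29294455 and 29299756, held 11 and 12 peaks in FTO roots, 13 and 13 in FTOmut roots and 11 and 12 in wild-type roots. Both genes lie within 1 stretch of chromosome 6, on opposite strands. LOC_Os07g20330 held 8 and 12 peaks in FTO roots, 7 and 7 in FTOmut roots and 11 and 10 in wild-type roots. LOC_Os12g26860 held more peaks in the transgenic lists, with 14 and 15 in FTO roots and 14 and 12 in FTOmut roots, against 10 and 9 in wild-type roots. LOC_Os11g43670, which is among the 5 highest of both organs, held 7 and 10 peaks in FTO roots, 12 and 8 in FTOmut roots and 9 and 9 in wild-type roots.

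**Figure D1:**
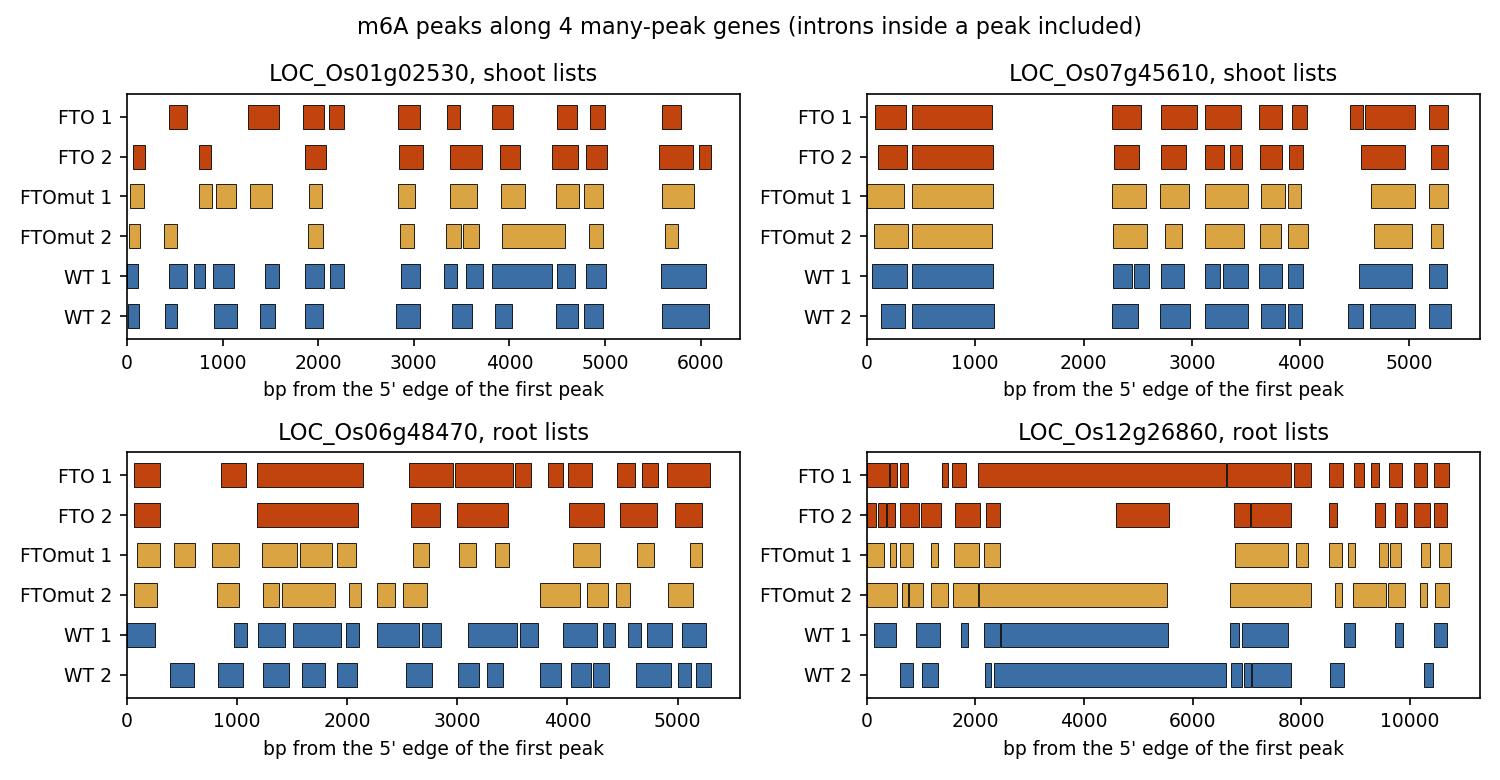
Peaks of 4 genes, with the distance in bp from the 5′ edge of the first peak on the horizontal axis and 1 row per list; each bar runs from the start to the end of a peak, introns inside it included. LOC_Os07g45610 shows peaks at like places in all 6 shoot lists, while LOC_Os12g26860 has 9 peaks in 1 wild-type root list and 15 in 1 FTO root list.

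The peaks of LOC_Os07g45610 lay at like places in all 6 shoot lists, as the peak map shows, with 1 broad peak near its 5′ end in each list. Those of LOC_Os06g48470 differed more from list to list. Over all shoot genes, 85.2% of the peaks of wild-type replicate 1 overlapped a peak of wild-type replicate 2 on the same strand, and 83.2% did so in root. For the peaks of other genes the shares were 90.0% and 83.1%. Of the replicated wild-type shoot peaks of the many-peak genes, 82.0% and 80.9% were met by a peak in the FTO lists and 83.3% and 79.1% in the FTOmut lists. The matching shares for other genes were 96.3% and 96.0% in FTO and 95.8% and 94.1% in FTOmut. In root, 83.6% and 94.2% of the members' replicated peaks were met in FTO and 91.9% and 87.1% in FTOmut. Other genes gave 90.9% and 94.1% in FTO roots and 91.6% and 90.7% in FTOmut roots, which is close to the members in 3 of these 4 lists. FTO and FTOmut did not separate in either organ (exact permutation test over 2 lists against 2, two-sided p = 1 in shoot and in root, with 0.333 the smallest p that 2 against 2 can give).

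Peak numbers in FTO and FTOmut were close to each other. In shoot the genes held 806 and 810 peaks in the FTO lists, 832 and 738 in the FTOmut lists and 842 and 900 in the wild-type lists. That is 4.49 ± 0.016 peaks per gene in FTO, 4.36 ± 0.37 in FTOmut and 4.84 ± 0.23 in wild type (SD, n = 2 lists each). In root they held 526 and 635 peaks in FTO, 619 and 578 in FTOmut and 579 and 575 in wild type. The root means were 4.30 ± 0.57 peaks per gene in FTO, 4.43 ± 0.21 in FTOmut and 4.27 ± 0.021 in wild type (SD, n = 2 lists each). FTO and FTOmut lists overlapped in both organs, with an exact permutation p of 1 in each (two-sided, smallest possible 0.333). The direction between them turned when a list was left out in either organ. Without FTOmut replicate 2 the shoot difference of FTO minus FTOmut was -0.13 peaks per gene against 0.13 with all lists. Without FTO replicate 1 the root difference was 0.27 and without FTOmut replicate 1 it was 0.019, against -0.13 with all lists.

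**Figure D2:**
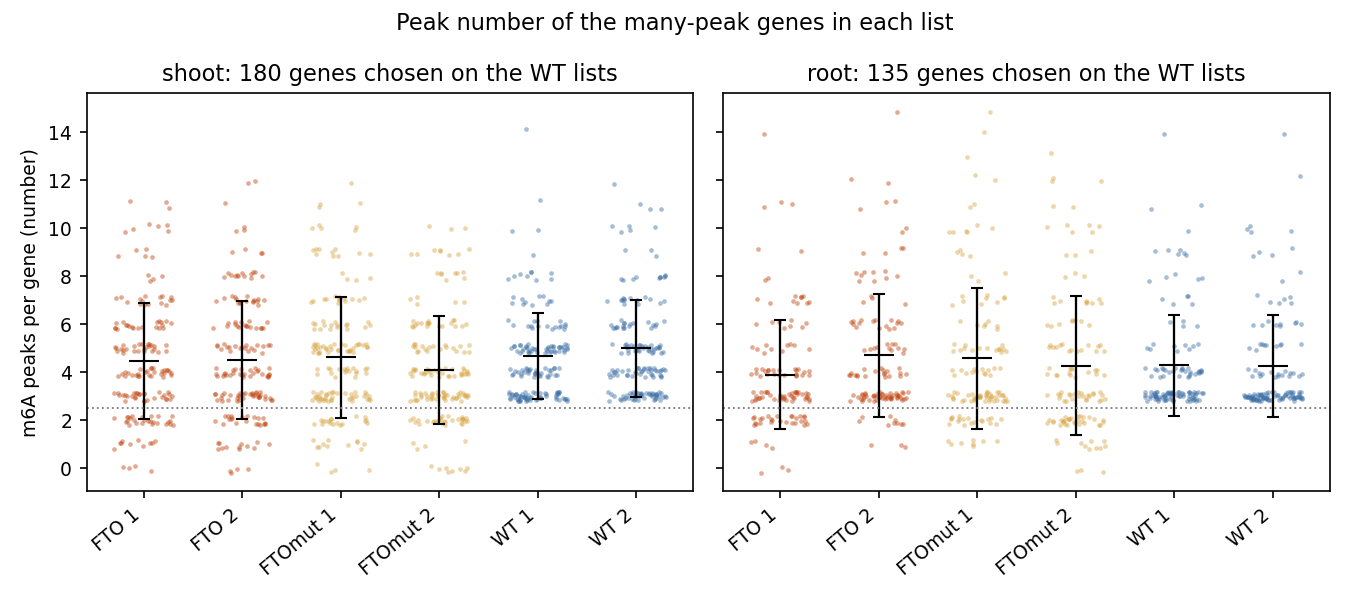
Peak number of every many-peak gene (points, spread slightly to part equal values) in each of the 6 lists of shoot and of root, with the mean and the SD over genes in black; the dotted line marks the limit of 3 peaks. All points of the WT lists lie above the line because those lists chose the genes, while FTO and FTOmut lists also hold points below it and reach up to between 10 and 15 peaks.

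Because the wild-type lists chose the genes, a lower number elsewhere is partly built in, and the size of that was read from the wild-type replicates themselves. The 235 shoot genes with 3 or more peaks in wild-type replicate 1 averaged 4.34 peaks there and 4.19 in wild-type replicate 2. Those genes averaged 3.91 and 3.93 peaks in the FTO lists and 4.07 and 3.60 in the FTOmut lists. The 293 genes taken on replicate 2 averaged 4.35 peaks there, 3.40 in wild-type replicate 1, 3.46 and 3.51 in FTO and 3.68 and 3.28 in FTOmut. In root, the 278 genes taken on replicate 1 averaged 3.70 peaks there, 2.86 in wild-type replicate 2, 2.86 and 3.59 in FTO and 3.43 and 3.14 in FTOmut. The 221 root genes taken on replicate 2 averaged 3.86 peaks there, 3.23 in wild-type replicate 1, 3.25 and 3.94 in FTO and 3.74 and 3.56 in FTOmut. In 3 of these 4 choices the other wild-type list lay at or below at least 3 of the 4 transgenic lists.

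Many genes kept a high peak number in every list. Of the shoot genes, 104 of 180 held 3 or more peaks in all 6 lists, as did 79 of 135 root genes. Both FTO lists held 3 or more peaks for 129 shoot and 99 root genes, and both FTOmut lists for 126 and 88. Both FTO lists fell under 3 peaks for 26 shoot and 10 root genes, and both FTOmut lists for 20 and 24. Every FTO list lay above every FTOmut list for 34 shoot genes and below for 27, where 3.17% of all shoot genes with a peak in these lists lay above and 2.78% below. For root the counts were 12 above and 16 below, where 3.19% of all such genes lay above and 2.78% below. Most of those genes hold 1 peak, and the difference between their share and the members' was not tested.

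The lists of the other organ played no part in the choice and allow a comparison with wild type. The 180 shoot genes averaged 3.37 and 4.33 peaks in the FTO root lists, 4.48 and 4.36 in the FTOmut root lists and 2.88 and 3.06 in the wild-type root lists. Every FTO and every FTOmut list lay above both wild-type lists. The mean was 1.30 times wild type in FTO and 1.49 times wild type in FTOmut, each with an exact permutation p of 0.333, the smallest that 2 lists against 2 can give. Without FTO replicate 2 the difference of FTO minus wild type was 0.40 peaks per gene, against 0.88 with all lists, and without FTO replicate 1 it was 1.37. Both genotypes are set against the same wild-type lists. Of the 180 genes, 116 and 141 held 3 or more peaks in the FTO root lists, 139 and 139 in the FTOmut root lists and 86 and 89 in the wild-type root lists. FTO replicate 2 had the most gene peaks of the root lists, 15999 against 14054 to 14854 in the other 5. As a share of all gene peaks of a list, the 180 genes held 4.26% and 4.88% in FTO, 5.43% and 5.33% in FTOmut and 3.50% and 3.91% in wild type.

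The reverse comparison gave no such gap. The 135 root genes averaged 3.78 and 3.76 peaks in FTO shoot lists, 3.67 and 3.71 in FTOmut shoot lists and 3.41 and 3.81 in wild-type shoot lists. The transgenic lists lay between the wild-type replicates (exact permutation p = 1 for FTO and for FTOmut against wild type). Without wild-type replicate 1 the differences turned, to -0.037 peaks per gene for FTO and -0.11 for FTOmut.

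The genes were long. Gene length in the count tables had a median of 4696 bp in the shoot set and 4050 bp in the root set. Genes with exactly 1 peak in both wild-type lists had medians of 1886 bp in shoot and 1840 bp in root, and all 55801 genes had a median of 1383 bp. The shortest member had 1461 bp in shoot and 1170 bp in root, and the longest had 7957 bp and 6650 bp. Members held a median of 1.06 wild-type peaks per kb in shoot, with a range of 0.478 to 2.15, and 1.07 in root, with a range of 0.493 to 2.56. LOC_Os01g02530 had the densest peaks among the 5 highest shoot genes, with 2.15 per kb over its 5814 bp.

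The share of members among genes with a peak in both wild-type lists rose with length up to 6 kb. In shoot it was 0.0876% of genes of 1 to 2 kb, 2.13% at 3 to 4 kb, 10.3% at 4 to 5 kb and 26.9% at 5 to 6 kb. In root the same bins gave 0.166%, 1.96%, 6.46% and 18.5%. Above 6 kb it was 26.9% in shoot and 16.1% in root. No gene under 1 kb was a member in either organ. Long genes without many peaks were still the majority, since 53 of 197 such shoot genes of 5 to 6 kb were members.

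**Figure D3:**
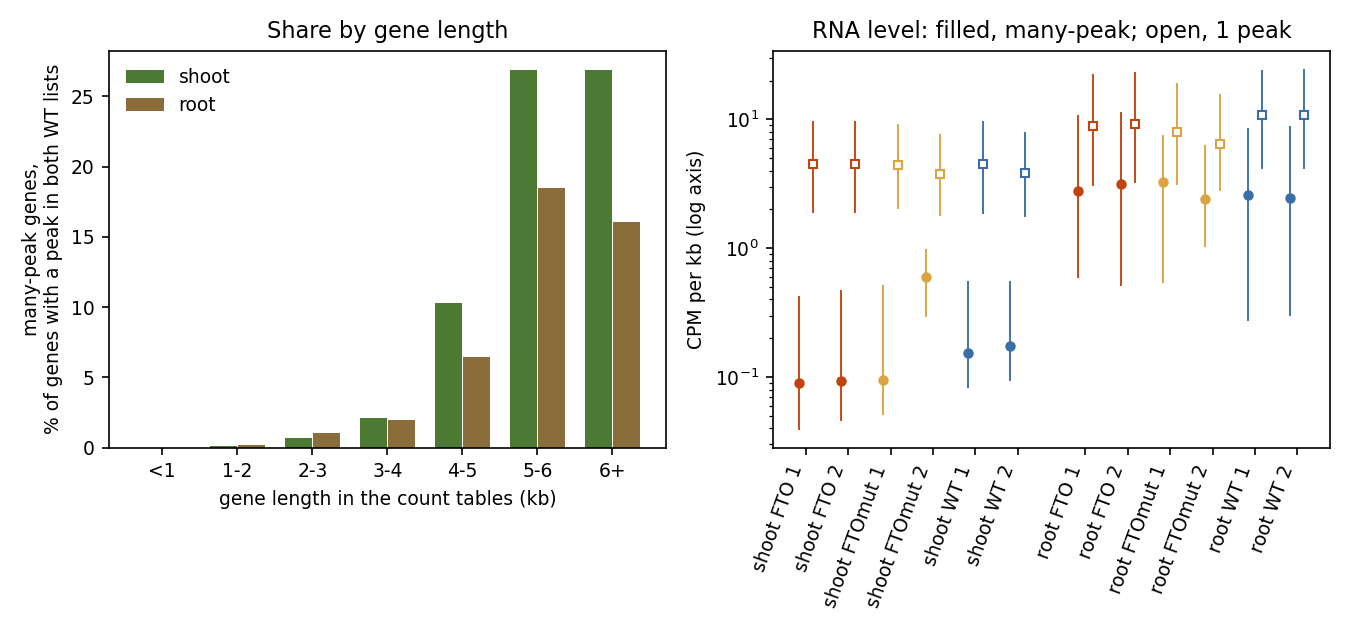
Left, many-peak genes as a percentage of genes with a peak in both WT lists, by gene length in kb; right, RNA level in CPM per kb on a log axis, as the median and the quartiles over genes, for many-peak genes (filled circles) and genes with exactly 1 peak in both WT lists (open squares) in each RNA-seq library. The share reaches 26.9% at 5 to 6 kb in shoot, and every filled median lies below the open one of its library.

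Most of these peaks lay at repeats. The authors called peaks of the same libraries on annotated repeats as well, and a gene peak was counted as at a repeat when the 2 shared at least 1 bp of the same strand. Both lists read the same fragments, so the overlap says where a peak lies and is not a second measurement of it. In shoot, 82.9% and 82.6% of the members' peaks lay at a repeat peak in FTO lists, 84.3% and 80.2% in FTOmut lists and 81.0% and 82.0% in wild-type lists. Of the peaks of other genes, 6.34% and 6.94% did so in FTO, 9.16% and 7.22% in FTOmut and 5.54% and 7.15% in wild type.

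In root the share was lower, with 58.4% and 58.6% in FTO lists, 59.0% and 62.8% in FTOmut lists and 51.6% and 56.0% in wild-type lists. Peaks of other root genes gave 7.15% and 8.44% in FTO, 9.20% and 9.81% in FTOmut and 5.21% and 5.39% in wild type. Over the 8 FTO and FTOmut lists, which the choice of genes did not use, members averaged 71.1% ± 12.3 and other genes 8.03% ± 1.28 (SD over 8 lists). The share was higher for members in 8 of 8 lists, with an exact paired permutation p of 0.0078, the smallest possible (two-sided). The 4 lists of an organ share the same genes, and within 1 organ the smallest p is 0.125. Among the root lists, all 4 transgenic lists lay above both wild-type lists for members and for other genes alike.

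**Figure D4:**
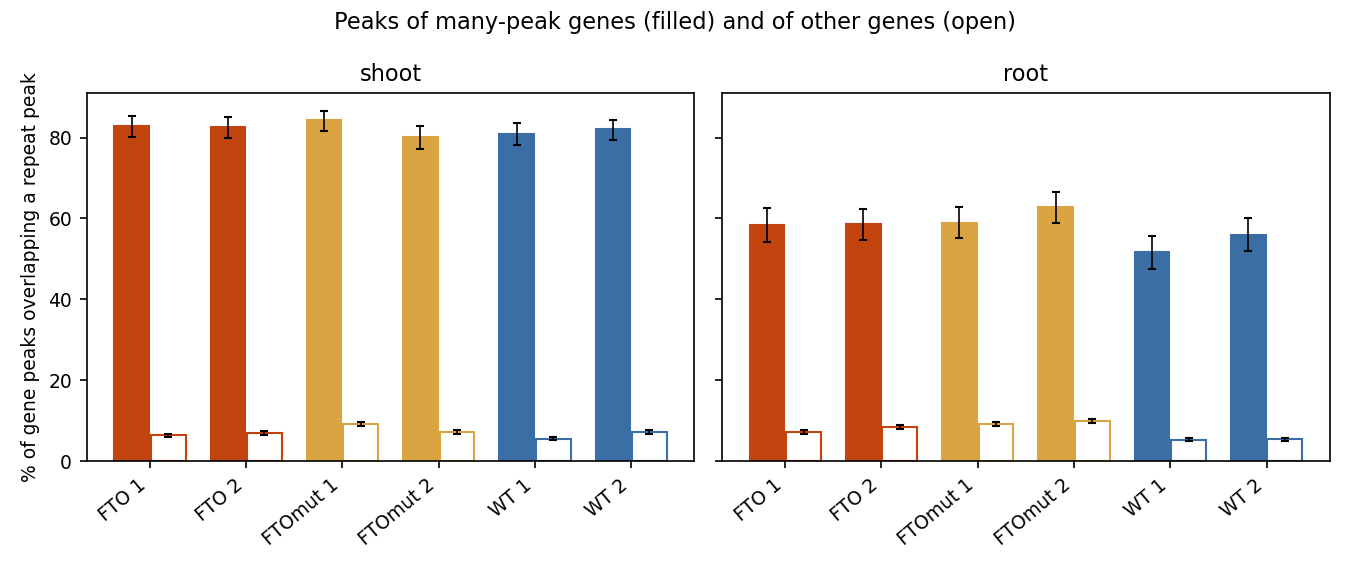
Percentage of gene peaks that overlap a peak of the repeat list of the same library, for many-peak genes (filled bars) and all other genes (open bars), with 95% Wilson intervals that cover counting error only. Filled bars stand above 80% in all shoot lists and between 51.6% and 62.8% in root lists, and no open bar reaches 10%.

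The repeat names were mostly of long terminal repeat (LTR) retrotransposons, elements that copy themselves through an RNA intermediate. Of the 4050 shoot peaks of members at a named repeat, 3334 (82.3%) touched a copy whose name starts with LTR_Os, against 57.9% of the repeat-overlapping peaks of other genes. In root 1525 of 2028 peaks (75.2%) did so, against 57.3% for other genes. HELITRON names, of rolling-circle DNA transposons, followed with 151 shoot and 137 root peaks, which is 3.73% and 6.76% of the members' repeat peaks. ENSPM names, of CACTA DNA transposons, came next with 3.31% and 3.16%. LTR_Os copies also make up 66.5% of all shoot and 61.2% of all root peaks in the repeat lists.

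By gene, 142 of the 180 shoot members had at least 50% of their peaks over the 6 lists at a repeat, 7 had fewer and 31 had none. In root the numbers were 58, 11 and 66. The repeat-overlapping genes were the longer ones, with median lengths of 5053.5 bp in shoot and 5130 bp in root, while those with no such peak had medians of 2991 bp and 3217 bp. Of the 64 genes in both sets, 45 have at least 50% of their peaks at repeats in each organ, which is 31.7% of that class in shoot and 77.6% in root. LOC_Os07g45610, LOC_Os07g22410 and LOC_Os11g43670 had 100% of their shoot peaks at a repeat, LOC_Os10g04050 had 21.6% and LOC_Os01g02530 had none of its 65. All 5 highest root genes lay in the repeat class, with 98.6% of peaks at a repeat in LOC_Os06g48470 and LOC_Os12g26860 and 100% in the other 3.

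The files give no description of these genes, so none is called a transposon gene. The count tables did show shared reads in them. The deposited counts hold fractions where a read was divided between places, and 87.2% of shoot members had a fractional count in at least 1 library, against 14.2% of the shoot genes with exactly 1 peak. In root the shares were 58.5% and 15.9%. In the repeat class it was 141 of 142 shoot and 56 of 58 root genes. The peaks and counts of such genes can therefore hold reads from near-identical copies elsewhere, and their values are uncertain in that sense. Gene lengths of 80.6% of shoot members and of 89.4% of the shoot repeat class were multiples of 3 bp, as gene models without untranslated regions give, against 33.8% of single-peak genes and 69.9% of all genes. In root the share was 65.2% of members, below that of all genes, with 86.2% of the repeat class. Members with no repeat overlap had 54.8% in shoot and 48.5% in root.

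The peaks themselves differed from those of other genes. In the FTO and FTOmut shoot lists the median width was 185 ± 9.4 bp for members and 242 ± 4.6 bp for other genes (SD, n = 4 lists). In root it was 211 ± 0.5 bp and 233 ± 4.7 bp. The median fold of pull-down over input, a value of the authors' peak caller for each peak, was 15.7 ± 0.49 for members and 28.6 ± 2.4 for other genes in shoot, and 18.6 ± 1.3 and 28.9 ± 1.3 in root. The median log10 FDR was -6.19 ± 0.052 for members and -9.04 ± 0.88 for other genes in shoot, and -6.19 ± 0.13 and -7.80 ± 0.59 in root. Each of these 3 measures lay on the same side in 8 of 8 lists (exact paired permutation p = 0.0078, the smallest possible). The 4 lists of an organ are repeat readings of the same genes, and within 1 organ the smallest p is 0.125. Within members, the peaks of the class with no repeat overlap had higher medians, for example 22.9 and 20.0 in FTO shoots, where the class with at least 50% had 15.0 and 15.8.

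Whole-number folds were common among them. Among peaks with a fold under 100, 84.9% and 81.3% of the members' folds were whole numbers in FTO shoots and 86.2% and 81.0% in FTOmut shoots. For such peaks of other genes the shares were 49.5% and 45.8% in FTO and 47.4% and 43.8% in FTOmut. Neighbouring peaks of a member had median gaps of 269 to 299 bp in FTO and FTOmut shoots and 228.5 to 313.5 bp in FTO and FTOmut roots. In each list 54.1% to 69.1% of members with 2 or more peaks had at least 1 pair of peaks with the same FDR. Gaps and shared FDRs are not set beside those of other genes here, so neither is given as particular to members. For FTO against FTOmut, the median fold of members was 16.0 and 16.0 in FTO shoots against 15.9 and 15.0 in FTOmut shoots, and 17 and 19 in FTO roots against 20.0 and 18.3 in FTOmut roots (exact permutation p = 0.333 and 0.667).

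Transcripts of the shoot members were scarce in the RNA-seq libraries. Their median level, in CPM (counts scaled to library size by TMM) per kb of gene, was 0.0897 and 0.0924 in FTO shoots, 0.0942 and 0.603 in FTOmut shoots and 0.153 and 0.175 in wild-type shoots. FTOmut replicate 2 stood apart, with a level well above the other 5 libraries. Genes with exactly 1 peak had medians of 4.52 and 4.52 in FTO, 4.45 and 3.78 in FTOmut and 4.51 and 3.85 in wild type. Fewer than 10 counts were found for 123 of 180 members in each FTO shoot library, for 76 and 0 in FTOmut and for 84 and 53 in wild type. Over both wild-type libraries, 142 of the 180 had a level under 1. In bulk tissue, fewer cells that express a gene and less RNA per cell cannot be told apart.

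The root members were better expressed but still below single-peak genes. Their median level was 2.78 and 3.14 in FTO roots, 3.25 and 2.41 in FTOmut roots and 2.58 and 2.43 in wild-type roots. Genes with exactly 1 peak had 8.82 and 9.15 in FTO, 7.94 and 6.43 in FTOmut and 10.8 and 10.8 in wild type. Level and repeat overlap went together. Root members with at least 50% of peaks at repeats had medians of 0.605 and 0.493 in FTO, 0.518 and 1.11 in FTOmut and 0.264 and 0.252 in wild type, while those with no such peak had 7.84 and 9.25 in FTO, 6.04 and 4.92 in FTOmut and 8.08 and 7.98 in wild type. The median of the repeat class was the lower one in all 6 libraries. Wild-type levels of single members ran from 0.0772 to 188 in root and from 0.0316 to 12.5 in shoot.

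RNA-seq depth was 12.97 M to 17.9 M gene counts per library in shoot and 13.4 M to 17.1 M in root. FTOmut replicate 2 had 36654 genes with 10 or more counts in shoot and 46275 in root, against 18082 to 22488 and 23270 to 30283 in the other libraries. The summed level of 3 leaf markers was high in both FTOmut root libraries, at 9.10 and 8.43 log2 CPM, against 5.43 and 5.15 in FTO roots and 5.95 and 6.25 in wild-type roots. All 3 were detected in every root library. In shoots it was 9.61 in wild-type replicate 2 and 11.3 to 11.7 in the other 5. The summed level of 3 root markers was 8.51 and 8.36 in FTO roots, 9.64 and 9.13 in FTOmut roots and 9.94 and 10.04 in wild-type roots. These 3 moved apart, since the nicotianamine aminotransferase NAAT1 had 6.14 and 6.09 log2 CPM in FTO roots, 3.95 and 4.31 in FTOmut roots and 8.98 and 9.19 in wild-type roots, while the nitrate transport partner NAR2.1 was highest in FTOmut roots, at 8.98 and 8.70. In shoots their sum was 6.01 and 6.13 in FTO, 3.47 and 2.86 in FTOmut and 5.07 and 3.25 in wild type. The part of these differences in the results that follow was not tested.

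In shoot no member passed the test across all genes. With edgeR's quasi-likelihood test at a Benjamini-Hochberg adjusted p under 0.05, 0 of the 148 members tested (32 of 180 had too few counts) were called in any of the 3 comparisons, FTO or FTOmut with wild type and FTO with FTOmut. The test called 0% of all 24463 shoot genes in each of them. At an unadjusted p under 0.05, 5, 2 and 24 members passed in that order, beside 835, 2179 and 4139 of all genes, and DESeq2 called 0, 1 and 1 members, beside 38, 509 and 1357 of all genes. Without wild-type replicate 1, edgeR called 7, 5 and 22 members (3.89%, 2.78% and 12.2%), most of them lower, beside 10.98%, 5.76% and 13.1% of all genes. Without wild-type replicate 2 it called 1, 2 and 20 (0.556%, 1.11% and 11.1%), beside 0.683%, 12.3% and 13.6% of all genes. In simulated shoot counts with 4-fold changes, the test recovered 63 of 200 changed genes, all drawn from genes with a mean log2 CPM above 2. Changes of that size were thus often not detectable even at such levels. Shoot members had median counts of 4 and 5 in the FTO libraries, so this recovery does not apply to most of them.

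The median shoot fold change of the members, on the log2 scale, was -0.43 for FTO and 0.65 for FTOmut, each over wild type, and -1.06 for FTO over FTOmut. The medians of all genes tested were -0.07, 0.09 and -0.14. Without FTOmut replicate 2 the FTOmut median turned to -0.51 and that of FTO against FTOmut shrank to -0.11. With scaling by the added ERCC spike-in RNA, the FTO median turned to 0.45, while the median of all genes moved to 0.83. No direction is therefore given for the shoot members. The repeat class had medians of -0.60 in FTO and 0.84 in FTOmut against wild type, and the class with no repeat overlap had -0.09 and 0.09.

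Named shoot genes are given as values. Rule-chosen examples for FTO against FTOmut were not called by edgeR. The rule asked for FTO and FTOmut libraries that do not overlap, so their separation comes from the choice. LOC_Os12g22090, with 4 or 5 peaks in every shoot list, had a level of 4.92 and 5.55 in FTO, 2.88 and 2.71 in FTOmut and 4.70 and 3.06 in wild type, in CPM per kb. Its FTO libraries lay above both FTOmut libraries (0.90 on the log2 scale, SE 0.32, edgeR adjusted p = 0.27). LOC_Os10g20480, with 3 to 7 peaks, had 3.40 and 3.26 in FTO, 2.06 and 2.60 in FTOmut and 2.78 and 3.93 in wild type (0.51, SE 0.32, edgeR adjusted p = 0.41). LOC_Os09g19300, which held 2 or 3 peaks in each transgenic shoot list and 6 in each wild-type list, had 0.539 and 0.592 in FTO, 1.86 and 1.496 in FTOmut and 1.38 and 1.70 in wild type. Both FTO libraries lay below the other 4 (-1.56 against FTOmut, SE 0.36, edgeR adjusted p = 0.17). LOC_Os01g68510 had 1.496 and 1.75 in FTO, 3.81 and 5.29 in FTOmut and 1.74 and 0.964 in wild type (-1.48, SE 0.41, edgeR adjusted p = 0.20). Of the genes with the most peaks, LOC_Os10g04050 had the highest level, 7.42 and 6.96 in FTO, 14.03 and 14.01 in FTOmut and 13.2 and 11.8 in wild type. LOC_Os01g02530 had 1.38 and 1.61 in FTO, 1.21 and 1.08 in FTOmut and 2.24 and 1.98 in wild type, and LOC_Os07g45610 stayed under 1 in all 6 libraries.

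In root all 135 members were tested, and the count of calls was near that of all genes. In FTO against wild type, edgeR called 47 members (34.8%), 33 of them higher and 14 lower, where 35.1% of all 32467 genes were called, 16.3% higher and 18.8% lower. In FTOmut against wild type it called 80 (59.3%), 50 higher and 30 lower, where 61.6% of all genes were called, 32.5% higher and 29.1% lower. In FTO against FTOmut it called 27 (20.0%), 25 higher and 2 lower, where 20.3% of all genes were called, 14.8% higher and 5.47% lower. The total shares lay near the background, and the members' median log2 fold changes were 0.46, 0.24 and 0.12, beside 0.19, 0.06 and -0.11 for all genes. With ERCC scaling the split in FTO against wild type became 75 higher and 2 lower, beside 29.7% higher and 7.45% lower of all genes, with the median of members at 0.98 and that of all genes at 0.69. The split in FTO against FTOmut became 59 and 1, beside 32.7% higher and 2.098% lower of all genes.

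The number of root members called, and its split, moved between leave-one-out fits, and so did the share and the split of all genes. The medians of these fits are given here. The filter on low counts was applied anew in each fit, so libraries and filter changed together. With all libraries 32467 genes were tested, and 32695 without FTOmut replicate 2. The other fits tested 45242 to 46255 genes. For FTO against wild type the members' median was 0.41 and 0.43 without FTO replicates 1 and 2, beside 0.38 and 0.56 for all genes. Without FTOmut replicates 1 and 2 it was 0.41 and 0.38, beside 0.58 and 0.099. Without wild-type replicates 1 and 2 it was 0.32 and 0.28, beside 0.36 and 0.42. For FTOmut against wild type the split turned in 5 of the 6 fits, to 25 higher and 29 lower without FTO replicate 1, 24 and 30 without FTO replicate 2, 43 and 53 without FTOmut replicate 1, 13 and 19 without wild-type replicate 1 and 16 and 20 without wild-type replicate 2. The shares called were 40%, 40%, 71.1%, 23.7% and 26.7%, beside 39.6%, 40.05%, 74.8%, 27.3% and 26.8% of all genes. The median turned below 0 in 4 of these 5, down to -0.17 without FTOmut replicate 1, and stayed at 0.18 without wild-type replicate 1. With all 6 libraries and no filter on low counts the split also turned, to 33 and 35, at a median of -0.04. Of all genes, 22.8% were then higher and 19.3% lower. No direction is therefore given for the root members as a whole in FTOmut. For FTO against FTOmut, higher calls were the more frequent in every leave-one-out fit, among members and among all genes alike. The members' median was 0.36 and 0.27 without FTO replicates 1 and 2, beside -0.31 and -0.15 for all genes. It was 0.50 without FTOmut replicate 1, beside -0.45, and 0.11 without either wild-type replicate, beside -0.50. The members' median was lowest in the fit without FTOmut replicate 2, at 0.02, beside -0.01 for all genes. With all libraries it was 0.12, beside -0.11.

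In root the 2 classes of members had medians of opposite sign in FTOmut against wild type, while in FTO both lay above 0. In FTO against wild type, edgeR called 18 of the 58 genes with at least 50% of peaks at repeats higher and 1 lower, with a median of 1.11 on the log2 scale and 56 of 58 fitted values above 0. Of the 66 genes with no repeat overlap, 13 were higher and 11 lower, with a median of 0.15. Of all genes tested, 16.3% were higher and 18.8% lower, with a median of 0.19. In FTOmut against wild type the repeat class had 40 higher and 2 lower with a median of 1.44. The other class had 9 higher and 25 lower with a median of -0.37. All genes gave 32.5% higher and 29.1% lower, with a median of 0.06. The contrast between the classes was not tested as such. FTO and FTOmut are set against the same wild-type libraries. Between FTO and FTOmut themselves, 3 genes of the repeat class were higher and 0 lower with a median of -0.43. In the other class 18 were higher and 2 lower with a median of 0.36. All genes gave 14.8% higher and 5.47% lower, with a median of -0.11.

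Counts in both classes moved between the leave-one-out fits, in which libraries and filter changed together. In the repeat class the medians against wild type kept their sign in every leave-one-out fit. The medians of all genes tested lay above 0 as well. For FTOmut they were 0.951 to 1.099 in the fits of 45242 to 46255 genes, beside 1.079 to 1.317 in the class. Without FTOmut replicate 2 it was 0.054, beside 1.06. For FTO they were 0.099 to 0.576 over these fits, beside 0.83 to 1.09. With all libraries and no filter, the FTOmut median was 1.297 for all genes and 1.14 for the repeat class. In both comparisons with wild type, the number of its genes called higher moved between the leave-one-out fits. The share of all genes called higher moved between them as well. Without FTOmut replicate 2, the library that stood apart, the FTOmut median was 1.06. ERCC scaling gave 38 higher and 0 lower in FTO, with a median of 1.62. It called 29.7% of all genes higher and 7.45% lower there, with a median of 0.69. In FTOmut it gave 39 and 2, with a median of 1.45. The shares of all genes there were 31.5% and 28.2%, with a median of 0.06. In the class with no repeat overlap, the FTOmut median against wild type stayed below 0. It ran from -0.89 without FTOmut replicate 1 to -0.15 without FTOmut replicate 2. Lower calls were the more frequent in each of these fits, and among all genes in each but the one without FTOmut replicate 1. The FTO split of the class leaned higher without either FTO replicate and lower without either wild-type replicate, as did that of all genes. The FTO median of the class turned to -0.12 without either wild-type replicate, so that it had no stable side. For FTO against FTOmut, higher calls were the more frequent in every leave-one-out fit, in this class and among all genes alike. The class median there ran from 0.13, without FTOmut replicate 2, to 0.82, without FTOmut replicate 1. The medians of all genes in these 2 fits were -0.01 and -0.45. For FTO against FTOmut the repeat class had no stable side, since its median moved to -0.07 without FTOmut replicate 2 and to 0.08 with ERCC scaling.

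**Figure D5:**
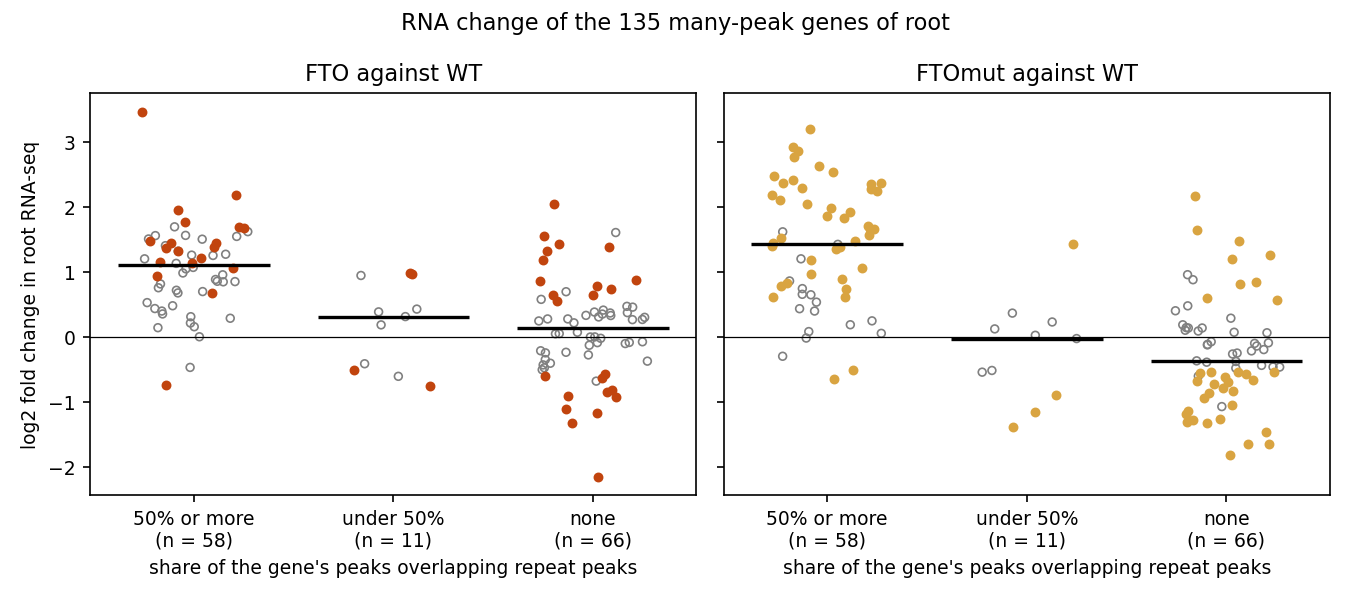
Log2 fold changes in root RNA-seq of the 135 many-peak genes, FTO against WT on the left and FTOmut against WT on the right, by the share of a gene's peaks that overlap repeat peaks; filled points passed edgeR's test at an adjusted p under 0.05, open points did not, and lines mark medians. The class with 50% or more has medians of 1.11 and 1.44, and the class with none has 0.15 and -0.37.

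The shoot set was also measured in root RNA, which played no part in its choice. The 2 repeat classes share 45 genes. Of the 142 shoot members with at least 50% of peaks at repeats, 141 were tested in root. edgeR called 32 higher and 2 lower in FTO than in wild type, at a median of 1.22 on the log2 scale. Of all genes tested, 16.3% were higher and 18.8% lower there, at a median of 0.19. In FTOmut it called 102 higher and 4 lower, at a median of 1.99. All genes gave 32.5% higher and 29.1% lower, at a median of 0.06. Without FTOmut replicate 2 the medians of the class were 1.14 in FTO and 1.29 in FTOmut. Over all leave-one-out fits they ran from 0.96 to 1.29 in FTO and from 1.29 to 2.12 in FTOmut. Over all genes tested, the FTO medians of these fits were 0.361 to 0.576, and 0.099 without FTOmut replicate 2. The FTOmut medians of all genes were 0.951 to 1.099, and 0.054 without FTOmut replicate 2. The genes of this class also held more peaks in FTO and FTOmut root lists than in wild-type root lists. In the repeat class the mean was 3.46 and 4.52 peaks per gene in FTO roots, 4.65 and 4.57 in FTOmut roots and 2.80 and 3.07 in wild-type roots. In the class with no repeat overlap it was 3.10 and 3.58 in FTO, 3.90 and 3.42 in FTOmut and 3.23 and 2.84 in wild type, where FTO replicate 1 lay between the wild-type lists. Whether the peak number followed the RNA level was not tested.

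Single root genes show the range. LOC_Os06g48470, with the most wild-type peaks, had 0.578 and 0.399 CPM per kb in FTO roots, 0.488 and 0.719 in FTOmut roots and 0.212 and 0.249 in wild-type roots. All 4 transgenic libraries lay above wild type, by 1.08 on the log2 scale (SE 0.42, adjusted p = 0.059 with edgeR) in FTO, which missed the threshold, and by 1.39 (SE 0.41, adjusted p = 0.011 with edgeR) in FTOmut. LOC_Os12g26860 had 2.42 and 3.05 in FTO, 3.01 and 3.73 in FTOmut and 1.20 and 1.14 in wild type. It rose in both, by 1.23 (SE 0.22, edgeR adjusted p = 0.00059) and 1.53 (SE 0.22, adjusted p = 5.9e-05), and it is the gene whose peak number was higher in all 4 transgenic root lists. LOC_Os07g20330 had 0.557 and 0.444 in FTO, 0.680 and 1.20 in FTOmut and 0.137 and 0.118 in wild type. It rose by 1.96 in FTO and 2.87 in FTOmut, while its peak number was 8 and 12 in FTO and 7 and 7 in FTOmut, against 11 and 10 in wild type. LOC_Os11g43670 was not called in either, with fold changes of 0.36 and 0.75.

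The 4 genes that the rule named for FTO over FTOmut in root had no peak at a repeat. The rule asked for a call and for FTO and FTOmut libraries that do not overlap, so both come from the choice. LOC_Os12g08564 had 26.0 and 28.8 CPM per kb in FTO roots, 5.24 and 3.64 in FTOmut roots and 13.2 and 5.45 in wild-type roots. It was higher in FTO than in FTOmut by 2.63 on the log2 scale (SE 0.42, edgeR adjusted p = 0.0045), with 4 and 3 peaks in FTO, 2 and 2 in FTOmut and 3 and 4 in wild type. LOC_Os02g40840 had 30.0 and 32.0 in FTO, 8.56 and 5.02 in FTOmut and 23.5 and 24.3 in wild type, and the FTO libraries lay above FTOmut by 2.19 (SE 0.23). LOC_Os03g51150 had 0.747 and 0.912 in FTO, 4.01 and 1.76 in FTOmut and 4.26 and 3.16 in wild type. It was lower in FTO than in FTOmut (-1.78 on the log2 scale, SE 0.39, edgeR adjusted p = 0.0074), with 1 and 2 peaks in FTO, 2 and 1 in FTOmut and 3 and 3 in wild type. LOC_Os01g34080 had 1.25 and 1.62 in FTO, 2.69 and 2.41 in FTOmut and 1.75 and 1.89 in wild type (-0.83, SE 0.23, edgeR adjusted p = 0.020).

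None of 88 listed genes of known function was a member. The lists hold light receptors, clock genes, hormone receptors, RNA silencing and DNA methylation genes, m6A writers, cellulose synthases, ion transport and metabolic genes. Of these, 43 had a peak in both wild-type shoot lists and 45 in both wild-type root lists, and the highest wild-type peak number among them was 2 in each organ. Members are 180 of the 10641 shoot genes and 135 of the 10893 root genes with such peaks, so 0 among so few listed genes is near the background. Long genes were among them, with a median length of 4069 bp for the 9 cellulose synthases and of 4046 bp for the 11 RNA silencing genes, close to the 4050 bp of the root members. Members lay on all 12 chromosomes, from 8 genes on chromosome 2 to 27 on chromosome 1 in shoot, and from 8 on chromosomes 2, 4 and 9 to 20 on chromosome 1 in root.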

How the data were processed

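RNA-seq covered 12 libraries and m6A-seq gave 12 lists of peaks in genes and 12 in repeats. Per the submitters' processing notes, cutadapt 1.15, HISAT2 2.1.0 and featureCounts of Subread 1.6.4 were used. The deposited gene tables hold expected counts (whole reads plus fractions of shared reads), which were rounded to whole numbers, and gene lengths. The peak lists, made with MeTPeak per the labels, give a fold, deposited as a ratio of pull-down over input, and an FDR that the authors deposited on a log10 scale. Positions, lengths and block numbers are other deposited values. No genome build or caller setting is given in the sources used here. The depth of the m6A-seq libraries is unknown. Repeat count tables were not used.

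Within each organ, edgeR 4.0.16 (R 4.3.3) fitted the 6 RNA-seq libraries in 1 model, after its expression filter and TMM scaling. Fits that left out a library applied the filter anew and tested more genes, up to 35928 in shoot and 46255 in root. Its robust quasi-likelihood tests were two-sided, and a gene was called when its p, adjusted after Benjamini and Hochberg, was under 0.05. DESeq2 1.42.0 was an alternative. Positions are 1-based. SE belongs to the fitted log2 fold change and SD to 2 replicates or the lists named. Peak values were compared over lists with exact permutation tests. Overlap needs 1 bp on the same strand, and blocks of spliced peaks were used, not introns. On simulated counts with 4-fold changes, FTO against wild type, the test recovered 63 of 200 changed genes in shoot (22560 genes, 0 false calls) and 200 of 200 in root (31164 genes, 11 false calls). The changed genes were drawn from those with a mean log2 CPM above 2. Scripts ran under python 3.11.15 with scipy 1.17.1.

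The members and gene lists were chosen with earlier results of these data known. Named genes follow a rule: per organ, the 5 members with the most wild-type peaks, listed genes that are members, the 2 largest changes each way between FTO and FTOmut among called genes (where none was called, the smallest p) with a mean log2 CPM of at least 1 and groups that do not overlap, and 2 genes each side of the threshold. A reference gene table of another assembly matched 0 of the 251 identifiers, so genes carry no names, and with no genome no sequence is shown.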

Additional observations from a re-analysis of the deposited data

How the results depend on the processing

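Between FTO and FTOmut, none of the peak comparisons could pass a threshold with 2 lists against 2, and several turned sign. For the share of gene peaks in members, in percentage points, shoot turned to -0.055 with 2 or more peaks as the limit, -0.018 with only peaks at no repeat and -0.050 with both organs together, and root turned to 0.131 with 2 or more and 1.81 with only peaks at repeats. For peaks per gene, root turned to 0.066 with 2 or more and 0.048 with only peaks at no repeat, and shoot to -0.0028 with both organs together. The median fold turned to 2.73 in root with only peaks of a fold of at least 10 and a log10 FDR of -5 or less, and to -0.29 in shoot with both organs together. Root-chosen genes in shoot lists, FTOmut minus wild type, turned to -0.12 with those stricter peaks and -0.056 with a limit of 4. Leaving out 1 list at a time gave -0.12 to 0.36 points for the shoot share, -0.13 to 0.39 peaks per gene in shoot and -0.54 to 0.27 in root, and for root-chosen genes in shoot -0.037 to 0.36 in FTO and -0.11 to 0.28 in FTOmut against wild type. A planned fold limit of 2 kept every peak. Stricter peaks, repeat splits, including the RNA calls by repeat class, and the comparisons of genes chosen in one organ in the lists of the other were chosen after seeing the data, and the cause of these turns was not tested.

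For RNA, as the percentage of members called, DESeq2 gave 0.676% in shoot for FTOmut against wild type and for FTO against FTOmut, beside 2.08% and 5.55% of all genes. ERCC scaling gave 0.676% in shoot for FTO against FTOmut, beside 4.93%. In root, FTO against FTOmut gave 30.9% with a limit of 2 peaks, 8.89% with 4 and 44.4% with ERCC scaling, beside 20.3%, 20.3% and 34.8% of all genes, and FTO against wild type 57.0% with ERCC scaling, beside 37.1%. With a limit of 2 peaks the root split in FTOmut against wild type turned to 209 higher and 494 lower, at a median of -0.39, and that in FTO against wild type became 238 and 234. Leaving out 1 library at a time, where the lone library of a group is assumed to vary like the other groups, gave 0% to 3.89% (FTO against wild type), 0% to 2.78% (FTOmut against wild type) and 0% to 12.2% (FTO against FTOmut) in shoot, and 9.63% to 53.3%, 23.7% to 71.1% and 7.41% to 54.8% in root. The replicate block gave 0% in shoot and 39.3%, 60.0% and 23.7% in root. Correlations between genotypes of the difference of replicate 1 from replicate 2 ran from -0.28 to 0.16. The labels do not say whether same-numbered samples were handled together, and these correlations cannot show it. With 2 lists per group, the peak comparisons cannot go below a p of 0.333.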
